A study of Drosophila melanogaster with 2 samples.

Results

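Peaks of a Dip2-eGFP fusion protein in the Drosophila bithorax complex were described from ChIP-seq (chromatin immunoprecipitation with sequencing) of whole embryos. The complex holds the Hox genes Ubx, abd-A and Abd-B and the long non-coding RNA gene lncRNA:iab8. Peaks were assigned to the complex by position, when the summit lay between 3R 16646623 and 16982236 (dm6), which runs from the Ubx gene body to the Abd-B gene body with 10 kb added at each end. In the conservative list, made by the authors from both replicates, 4 of 629 peaks that passed the irreproducible discovery rate (IDR) threshold lay in this interval of 335.6 kb. The ranked list behind it placed 363 of 129448 candidate peaks there. The complex was selected on these same lists, with its peaks and their signal already known, so its peak count, scores and signal ranks are given as a description without a test.

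The series holds 1 group with 2 biological replicates and no contrast between conditions. The embryos were 0 to 18 h old and came from transgenic flies of the Dip2-GFP strain, in which an insertion targets the gene Dlip2. The labels name Dip2 as the antibody target, and the precipitation used an antibody against GFP. In RefSeq, Dip2 is a synonym of Dlip2, and another gene has the symbol DIP2. Chromatin was sonicated to 200 to 800 bp. The labels do not give the promoter of the fusion gene or the untagged alleles that remained. Because whole animals were used, a strong site in few cells and a weak site in many cells cannot be told apart. Sequencing depth is unknown, since the lists give no reads.

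The Hox genes of the bithorax complex encode homeodomain transcription factors that give segments of the posterior body their identity. Ubx acts in the posterior thorax and anterior abdomen, abd-A in more posterior abdominal segments, and Abd-B in the last abdominal segments and the genitalia. The genes are controlled by segment-specific regulatory domains, which lie along the chromosome in the order of the segments they control and are held silent or active by Polycomb and Trithorax group proteins. Boundary elements separate neighbouring domains, among them Fub between the domains of Ubx and abd-A, and Mcp, Fab-6, Fab-7 and Fab-8 in the DNA between abd-A and Abd-B. CTCF, a zinc finger insulator protein, is known to bind several of these boundaries. lncRNA:iab8 is transcribed across the DNA between Abd-B and abd-A, is the host of the microRNA mir-iab-8, and is known to repress abd-A in the posterior nervous system.

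The sequences of the 4 conservative sites are shown because 3 of them carry a CTCF core near the summit and the other does not. Each is 300 bases from the RefSeq sequence of the dm6 assembly, centred on the summit, with any CTCF core within 100 bp of the summit in capitals. A core on the minus strand appears as its reverse complement.
bxd to abd-A site, chr3R:16798785-16799084, plus strand: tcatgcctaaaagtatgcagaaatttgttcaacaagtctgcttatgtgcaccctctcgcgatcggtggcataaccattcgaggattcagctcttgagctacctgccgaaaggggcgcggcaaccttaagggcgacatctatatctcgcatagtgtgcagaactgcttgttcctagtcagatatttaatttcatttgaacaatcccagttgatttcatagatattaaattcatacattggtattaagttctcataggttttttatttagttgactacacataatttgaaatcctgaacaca
iab8 site, chr3R:16919104-16919403, plus strand: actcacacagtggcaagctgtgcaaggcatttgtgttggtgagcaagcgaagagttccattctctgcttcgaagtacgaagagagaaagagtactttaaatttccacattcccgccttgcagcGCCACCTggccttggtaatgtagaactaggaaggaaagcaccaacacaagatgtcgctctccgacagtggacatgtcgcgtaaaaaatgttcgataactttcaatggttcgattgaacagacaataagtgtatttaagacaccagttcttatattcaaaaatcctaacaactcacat
Abd-B site 1, chr3R:16934762-16935061, plus strand: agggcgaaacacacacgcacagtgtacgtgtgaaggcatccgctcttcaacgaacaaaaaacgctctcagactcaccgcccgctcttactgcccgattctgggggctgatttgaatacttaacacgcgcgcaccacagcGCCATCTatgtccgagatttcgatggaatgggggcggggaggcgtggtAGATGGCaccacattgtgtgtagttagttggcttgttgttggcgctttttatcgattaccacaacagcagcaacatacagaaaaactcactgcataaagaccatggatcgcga
Abd-B site 3, chr3R:16969601-16969900, plus strand: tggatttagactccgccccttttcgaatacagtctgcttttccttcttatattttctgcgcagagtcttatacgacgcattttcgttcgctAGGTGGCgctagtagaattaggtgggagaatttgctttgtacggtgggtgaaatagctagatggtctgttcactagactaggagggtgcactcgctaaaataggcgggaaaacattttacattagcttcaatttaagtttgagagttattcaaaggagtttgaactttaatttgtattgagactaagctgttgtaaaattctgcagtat

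The 4 cores found in these windows are shown with 10 bases on either side, each read on the strand of the core, which is in capitals. The core searched was AGNNGGC with A or G at the first N and G or T at the second.
iab8 site, chr3R:16919217-16919243, minus strand: taccaaggccAGGTGGCgctgcaaggc
Abd-B site 1 core nearer the summit, chr3R:16934891-16934917, minus strand: tctcggacatAGATGGCgctgtggtgc
Abd-B site 1 other core, chr3R:16934939-16934965, plus strand: gaggcgtggtAGATGGCaccacattgt
Abd-B site 3, chr3R:16969682-16969708, plus strand: ttcgttcgctAGGTGGCgctagtagaa

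The 4 peaks fell in 3 places: between lncRNA:bxd and abd-A, in lncRNA:iab8, and in Abd-B. None lay in the gene bodies of Ubx or abd-A. All 4 had the highest possible scaled IDR score of 1000 in the conservative list and in each replicate's own list. Weaker peaks reached this cap too, such as the conservative peak near the gene ZIPIC, at rank 291 of 629 by signal. From the Ubx side to the Abd-B side they are called the bxd to abd-A site, the iab8 site, Abd-B site 1 and Abd-B site 3. Abd-B site 2 passed the threshold in the optimal list and in replicate 1 and did not pass it in the conservative list or in replicate 2.

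The strongest was the iab8 site, at 3R 16919059 to 16919452 in an intron of lncRNA:iab8. Its signal, the value given by the authors' peak caller and compared within 1 list, was 1135.8 in replicate 1 and 1780.8 in replicate 2. In the conservative list it was 2910.9. By signal it ranked 17 of 550 in replicate 1, 11 of 742 in replicate 2 and 15 of 629 in the conservative list, so it stood in the top few percent of each. Its signal was 15.8 times the median thresholded peak in replicate 1, 25.4 times in replicate 2 and 22.9 times in the conservative list. The summit lay 3873 bp downstream of the nearest annotated lncRNA:iab8 start, inside 5 of the 12 annotated transcripts, and 7.96 kb from the Abd-B gene body. It is therefore near the end of lncRNA:iab8 that faces Abd-B and 89.2 kb from abd-A.

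The bxd to abd-A site, at 3R 16798773 to 16799120, lay in no annotated gene. Its signal was 864.3 in replicate 1, 1004.7 in replicate 2 and 1825.8 in the conservative list. It ranked 33, 43 and 39 in those lists and was the second strongest site of the complex in each. The summit was 64.5 kb from the Ubx gene body and 8.28 kb from the abd-A gene body, whose near end is the end of transcription. The nearest abd-A start was 29.2 kb away. The closest annotated start was that of lncRNA:CR45750, a non-coding gene that begins 1665 bp away.

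Abd-B held the remaining sites, all in its transcribed region. Abd-B site 1, at 3R 16934789 to 16935035, was intronic to 8 of the 10 annotated Abd-B transcripts and lay 670 bp upstream of the start shared by the other 2. Its signal was 166.5 in replicate 1, 432.0 in replicate 2 and 599.2 in the conservative list. It ranked 138, 107 and 118 in those lists. Abd-B site 3, at 3R 16969650 to 16969846, was intronic only to the 1 Abd-B transcript that starts farthest from lncRNA:iab8, and lay 1177 bp upstream of the next start. Its signal was 154.3 in replicate 1, 168.1 in replicate 2 and 319.6 in the conservative list. It ranked 144, 175 and 159. The Abd-B sites 1 and 3 were thus close together in replicate 1 and further apart in replicate 2, and in every list both lay below the bxd to abd-A site and the iab8 site.

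Abd-B site 2 was the exception between the replicates. It lay at 3R 16953299 to 16953662, inside Abd-B and in an exon of lncRNA:CR46267, which is annotated on the opposite strand. Its signal was 46.2 with a score of 993 in replicate 1, and 17.9 with a score of 32 in replicate 2. On a list made from both replicates the same interval had a signal of 65.6, with a score of 870 in the optimal list and 264 in the conservative list. The scores of 870 and 993 stood above the lowest thresholded score, which was 830 in the optimal, conservative and replicate 1 lists and 831 in replicate 2. The site ranked 806 of 973 in the optimal list and 448 of 550 in replicate 1, so it was among the weaker peaks where it passed.

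**Figure D1:**
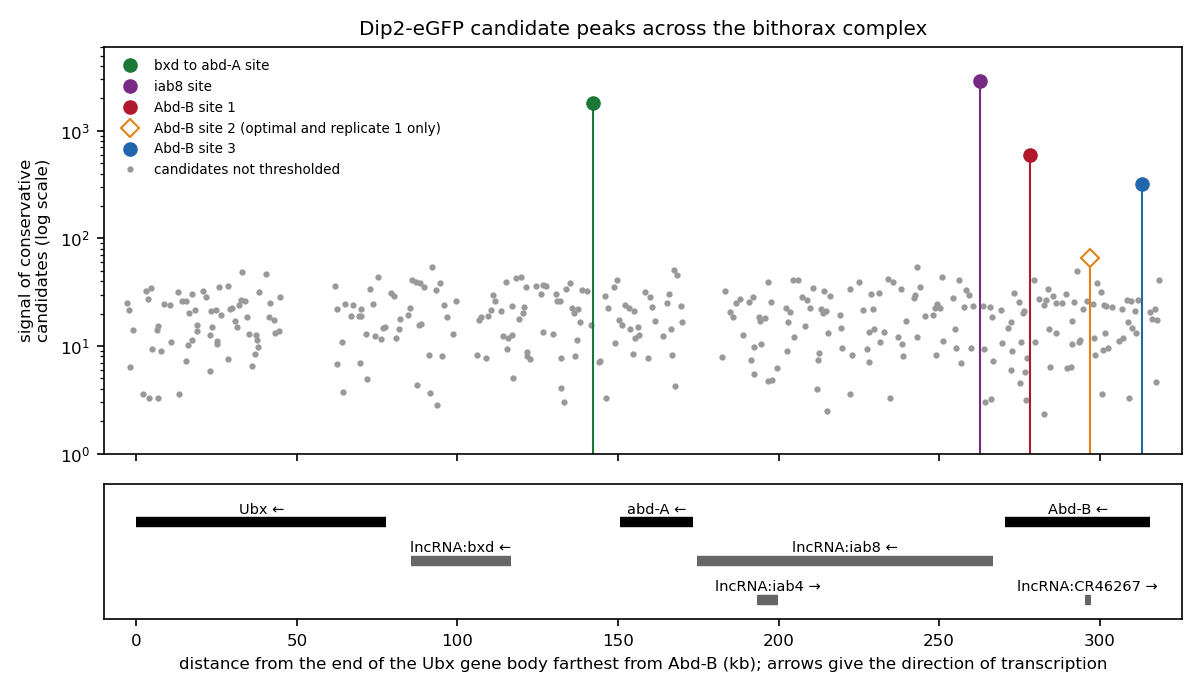
Signal of every conservative candidate peak in the bithorax complex (upper panel, log scale) against distance in kb from the end of Ubx farthest from Abd-B, with annotated genes below and arrows for the direction of transcription. The 4 coloured circles, from 319.6 to 2910.9, stand above all 358 grey candidates outside the named sites and above the open diamond of Abd-B site 2 at 65.6.

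The 4 conservative sites stood apart from the other candidates of the complex in signal. The weakest of them, Abd-B site 3, was 4.87 times the strongest other candidate, which was Abd-B site 2, as the map of candidates shows. The 358 candidates outside the 5 named sites had a median signal of 18.7. Higher signal of the peaks that passed is not particular to the complex. All thresholded conservative peaks had a median of 127.2, against 17.0 for candidates on the rest of the arms. Among the 4 sites themselves the signal differed by 9.11 times between the iab8 site and Abd-B site 3.

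**Figure D2:**
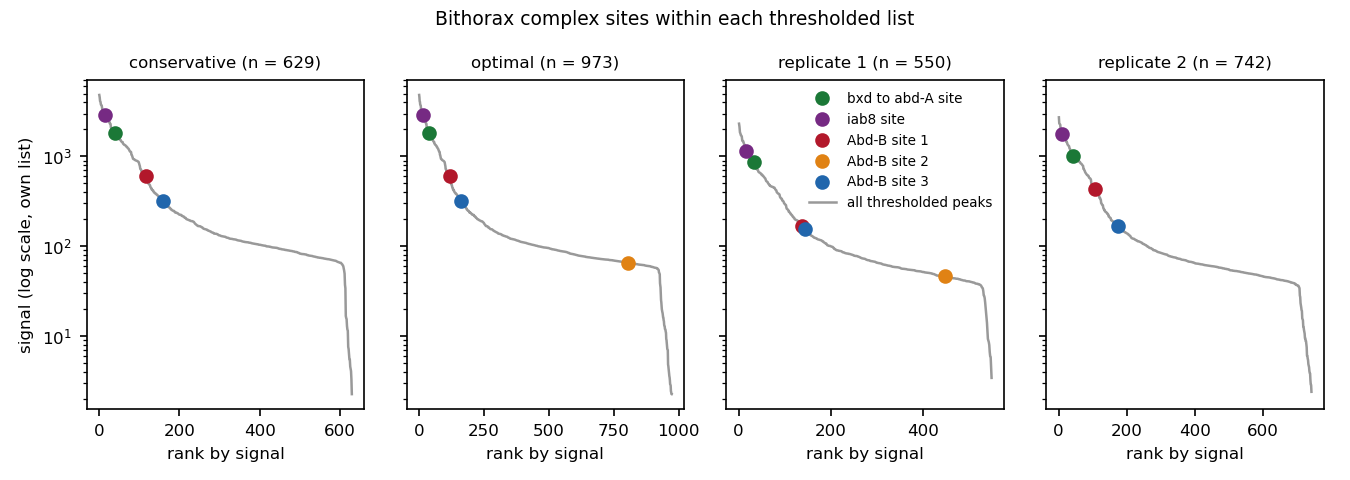
Signal (log scale, each list on its own scale) against rank for all thresholded peaks of the conservative, optimal, replicate 1 and replicate 2 lists (grey lines), with the bithorax complex sites as coloured points. The order iab8, bxd to abd-A, Abd-B site 1 and Abd-B site 3 was the same in every panel. The conservative and optimal lists, both made from the same replicates, give these sites the same signal and are not separate measurements. Abd-B site 2 appears in the optimal and replicate 1 panels at ranks 806 and 448.

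Positions matched closely between the lists. Over the 4 lists the summit moved by 4 bp at the bxd to abd-A site, 12 bp at the iab8 site, 4 bp at Abd-B site 1 and 1 bp at Abd-B site 3. The conservative and optimal summits were identical at each site, and both lists were made from the same replicates. At Abd-B site 2 the summits of the optimal and replicate 1 peaks were 26 bp apart. All 4 conservative sites overlapped a thresholded peak in both replicates by at least 1 bp. Their widths ran from 122 to 197 bp at Abd-B site 3, from 163 to 264 bp at Abd-B site 1, from 304 to 351 bp at the bxd to abd-A site and from 335 to 416 bp at the iab8 site. Among these 4 sites the weaker ones were the narrower. A width of 364 bp was shared by 99.7% of conservative candidates, and Abd-B site 2 had it too, whereas the 4 conservative sites were among 202 thresholded peaks of other widths.

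**Figure D3:**
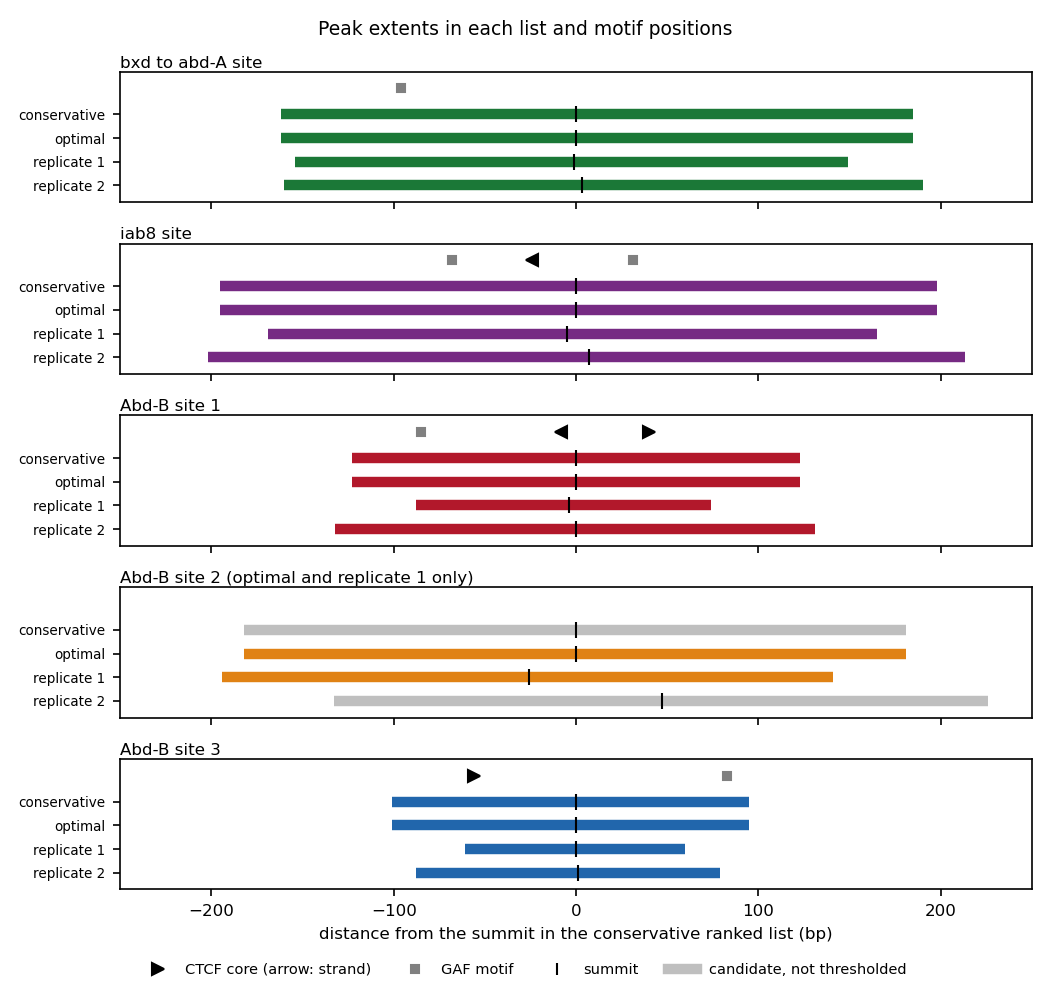
Extent of each bithorax complex peak in the conservative, optimal, replicate 1 and replicate 2 lists (bars, grey where the candidate did not pass the threshold), against distance in bp from the summit in the conservative ranked list. Ticks mark the summits, triangles the CTCF cores with their strand and squares the GAGAG matches within 100 bp; summits at the 4 conservative sites fall within 12 bp of each other.

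The interval held 4 thresholded peaks among 363 conservative candidates (1.10%, exact Clopper-Pearson 95% interval 0.301 to 2.80%), where 0.486% of all conservative candidates passed. In the optimal list 5 of 374 passed (1.34%, 0.435 to 3.09%), where 0.694% of all candidates passed. Replicate 1 had 5 of 294 (1.70%, 0.554 to 3.92%), where 0.529% passed, and replicate 2 had 4 of 316 (1.27%, 0.346 to 3.21%), where 0.667% passed. These intervals cover the number of peaks only, and nothing is read from the difference, since the complex was picked with its peaks known. Candidates of any score occurred at 10.8 per 10 kb in the complex and 9.19 per 10 kb on the rest of the chromosome arms in the conservative list. Their median signal was 18.8 in the complex and 17.0 on the rest of the arms.

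The Ubx gene body had no thresholded peak in any list. Its 77.8 kb gene body held 82 conservative candidates, or 10.5 per 10 kb, with a highest signal of 48.8. Its single annotated start had a candidate 228 bp away with a signal of 14.9 and a score of 18, and the nearest thresholded summit was 64.5 kb away. The abd-A gene body also had no thresholded peak in any list, with 24 candidates and a highest signal of 51.4. In the conservative list 0.486% of all candidates passed, and the rest of the arms had 4.42 thresholded peaks per Mb. At such rates nothing is read from the absence in either gene body. Neither the 3 abd-A starts nor any of the 18 distinct starts of Ubx, abd-A, Abd-B and lncRNA:iab8 had a thresholded conservative summit within 500 bp. The closest was the Abd-B start 670 bp from Abd-B site 1. The same share over all annotated starts is not given here. Of 13968 protein-coding genes, 5.43% had a thresholded conservative summit in the body or within 1 kb. Nothing is therefore read from the absence at these starts. In the conservative list Abd-B had the highest density of candidates of the 4 genes, at 63 candidates or 14.0 per 10 kb, and lncRNA:iab8 had 98 candidates or 10.6 per 10 kb. In replicate 2 the order differed, with 10.2 per 10 kb in Abd-B, 10.9 in abd-A and 10.5 in lncRNA:iab8.

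Below the threshold, the 5 strongest conservative candidates outside the named sites lay in 5 different genes. One in lncRNA:iab8 lay 190 bp from an annotated start, with a conservative signal of 54.8 and score of 493, and scores of 123 in replicate 1 and 230 in replicate 2. One in lncRNA:bxd, a non-coding RNA gene of the Ubx regulatory region, had a conservative signal of 54.4 and score of 42, a score of 744 in replicate 2, and no overlapping candidate in replicate 1. The others lay in abd-A, with a conservative signal of 51.4 and score of 269, in Abd-B, with 49.7 and 636, and in Ubx, with 48.8 and 352. Their scores in the replicates were at most 124. The order by score thus differed from the order by signal, with the Abd-B candidate highest by conservative score.

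The 4 sites were unevenly spaced. The bxd to abd-A site was 120.3 kb from the iab8 site, and the iab8 site was 15.7 kb from Abd-B site 1. Abd-B site 2 lay 18.6 kb beyond Abd-B site 1 and 16.3 kb before Abd-B site 3. The gap of 120.3 kb holds all of abd-A and the greater part of lncRNA:iab8, and was present in every list. The median between neighbouring summits on the arms was 120.1 kb in the conservative list, 80.0 kb in the optimal list, 193.2 kb in replicate 1 and 99.1 kb in replicate 2. In gene order, the bxd to abd-A site lies in the stretch between Ubx and abd-A where Fub is known to be, and the iab8 site lies in the stretch that holds Mcp, Fab-6, Fab-7 and Fab-8, at its Abd-B end. The annotation used here gives no coordinates for these boundaries, and whether a site coincides with one was not tested.

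Outside the interval, the nearest thresholded conservative peak beyond Ubx was 72.6 kb away near CG14903, with a signal of 1358.7. Beyond Abd-B the nearest was 409.3 kb away near sds22, with a signal of 91.6. The optimal and replicate 2 lists had a peak near CG18622 only 4.44 and 4.46 kb beyond the Abd-B edge, so the extent of the empty stretch on that side differed between lists. At the edges themselves, the last conservative candidate inside was 7222 bp from the Ubx-side edge with a score of 93, and the first outside was 4355 bp beyond it with a score of 18. On the Abd-B side the last inside was 7283 bp from the edge with a score of 122, and the first outside was 16844 bp beyond it with a score of 38.

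Both strands were searched for short sequence words up to 100 bp from each summit. The CTCF core was found at 3 of the 4 conservative sites, against 32.6% of all 611 thresholded peaks on the arms and 9.27% of 125886 other candidates on the arms. Its centre was 24 bp from the summit at the iab8 site. At Abd-B site 1 there were 2 cores in opposite orientations, 8 and 40 bp from the summit, and at Abd-B site 3 the core was 56 bp away. The nearest core was 402 bp from the summit at the bxd to abd-A site and 356 bp away at Abd-B site 2, so neither had one in the window.

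GAGAG, the word bound by the GAGA factor (the product of Trl), was present at all 4 conservative sites, against 20.0% of thresholded peaks and 23.0% of candidates. Its nearest match was 31 bp from the summit at the iab8 site. At the other sites it was 83 to 96 bp away, near the edge of the window. Within 250 bp GAGAG was in 49.9% of thresholded peaks and 47.3% of candidates. GCCAT, the core of sites for the Polycomb group protein Pho, was present at Abd-B site 1 and at Abd-B site 2. At Abd-B site 1 it lies within the reverse complement of AGATGGC, so the same bases were counted for both words. It occurred in 39.9% of thresholded peaks and 40.9% of candidates. CGATA, bound by the boundary protein BEAF-32, was at the iab8 site and Abd-B site 1, against 30.9% of thresholded peaks and 19.6% of candidates. TAATTA, a word bound by many homeodomains, TATAAA and the ELBA word CCAATAAG were at none of the 4 sites. Within 100 bp the 3 words occurred in 14.7%, 37.0% and 0.982% of thresholded peaks, and in 9.73%, 14.6% and 0.479% of candidates. Within 250 bp TAATTA and TATAAA were each at 2 of the 4. At that distance TAATTA was in 28.8% of thresholded peaks and 23.1% of candidates, and TATAAA in 57.6% and 34.5%. The Zeste words, NGAGNG with C or T at each N, were found at Abd-B site 3 within 100 bp. At that distance they were in 23.1% of thresholded peaks and 29.5% of candidates. Within 250 bp they were at 3 of the 4 sites, in 53.0% of thresholded peaks and in 56.8% of candidates. A match is a description of the letters in these windows.

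The GC content of the 201-base windows was 43.3% at the bxd to abd-A site, 44.3% at the iab8 site, 52.2% at Abd-B site 1, 51.2% at Abd-B site 2 and 41.8% at Abd-B site 3. All were above the median of 36.3% for all thresholded peaks, and the median of the other candidates was 46.8%.

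The peaks closest to the iab8 site by signal rank in the conservative list, chosen as 3 above and 3 below, had signals between 2666.3 and 3018. Above it were peaks nearest to CG7785, CG44439 and raskol, and below it peaks nearest to CG10222, Atpalpha (a subunit of the sodium pump) and CG13689. A CTCF core lay within 100 bp of the summit at 5 of these 6, the exception being the peak in CG10222. The nearest annotated start was 174 bp away at CG7785, 300 bp at CG13689, 532 bp at Atpalpha, 1235 bp at CG10222 and 2122 bp at CG44439. It was 13499 bp away at raskol. At the iab8 site it was 3873 bp away, farther than at all of these peaks but the one at raskol.

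The other Hox cluster of the fly, the Antennapedia complex, was treated in the same way. The interval from its first to its last Hox gene with 10 kb at each end spanned 357.8 kb and held 1 thresholded peak in each list among 436 conservative candidates. Of all conservative candidates 0.486% passed, and the arms outside the bithorax complex had 4.42 thresholded peaks per Mb. Nothing is read from the difference in count between the complexes. The peak of the Antennapedia complex was 5.26 kb from the body of lab, the most anterior Hox gene, and 594 bp from the start of Edg84A, a cuticle protein gene. Its signal was 209.6 in replicate 1, 425.0 in replicate 2 and 626.7 in the conservative list, which put it below the iab8 and bxd to abd-A sites in each. It was above Abd-B site 1 in replicate 1 and the conservative list and below it in replicate 2. It had no CTCF core within 100 bp. None of the other 4 Hox genes of that complex, pb, Dfd, Scr and Antp, had a thresholded conservative peak within 10 kb. Of all protein-coding genes, 16.1% had one.

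Genes whose products act on the bithorax complex were counted the same way, where 16.1% of 13968 protein-coding genes had a thresholded conservative summit in the body or within 10 kb. The Hox cofactors exd and hth had none. Of 17 annotated Polycomb group genes, 4 had one: ph-p, a subunit of Polycomb repressive complex 1, with a highest signal of 377.8, Caf1-55 with 326.3, phol with 208.1 and Psc with 72.6. Of 11 Trithorax group genes, 4 had one: ash1, a histone methyltransferase gene, with 481.8, Trl with 363.9, brm, the ATPase of the Brahma remodelling complex, with 224.0, and osa with 156.4. Of 13 annotated boundary factor genes, 3 had one: Cp190, whose product binds with CTCF at insulators, with 171.7, mod(mdg4) with 155.4 and ZIPIC with 137.5. CTCF itself had none. In the conservative list all of these signals were below that of Abd-B site 1, and 4 of the 11 genes were above Abd-B site 3. In replicate 1, ash1 with 222.8 and ph-p with 194.5 stood above Abd-B site 1 with 166.5. The strongest conservative summit lay outside the gene body by 1.52 kb at phol, 1.97 kb at Caf1-55, 7.78 kb at Psc and 9.39 kb at ZIPIC. At the others of these genes it was in the body or within 1 kb. Psc had no thresholded peak within 10 kb in replicate 2.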

How the data were processed

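Chromatin immunoprecipitation sequencing with an anti-GFP antibody was done on 2 biological replicates of whole embryos, per the labels. The authors deposited, for each replicate and for both together (conservative and optimal), a ranked list of candidate peaks and a thresholded list. Each peak has a signal from the authors' peak caller, of unstated scaling, and the authors' scaled IDR score. The ranked lists hold the deposited −log10 IDR, which reaches at most 5. All lists share an input taken to be the control. Not given in the sources used here were the aligner, the caller, any version, and the content of a further input of the thresholded lists. How these steps moved signals could not be checked.

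Each thresholded list was paired with the ranked list that held all its peaks with the same scores. Genes and starts came from Ensembl release 115 and sequence from RefSeq, both of dm6; positions are 1-based. Python 3.11.15, pandas 2.3.3, numpy 2.4.6 and scipy 1.17.1 were used, and the scripts were tested on simulated data. The conservative list was the main one, and no test was run. Values were given for the 4 genes, all thresholded peaks of the complex with the genes at or nearest to them, the 5 strongest candidates outside the thresholded lists, the 3 peaks on either side of the iab8 site by signal, and the members of the gene lists with a peak. The 4 genes and the gene lists were chosen with earlier results of these data known. As alternatives, values were recomputed from the lists of single replicates, the optimal list and the peaks above the median signal, and with no flanks, other overlap rules, a wider motif window and a shorter gene distance. Controls, tracks and alignments were not used here.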

Additional observations from a re-analysis of the deposited data

How the results depend on the processing

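A count was taken as kept within 1.5 times the main count, a share within its 95% interval, and a density or percentage below a site within 1 SD of the replicates, which is narrow where the replicates lay close. By these limits 29 of 36 alternatives over 10 results kept the value and 7 moved it. Several of those kept could hardly have moved, as given below, so the count is no measure of robustness. The number of conservative sites was 4 to 5 over the lists of single replicates, 5 in the optimal list, and 4 among peaks above the median signal and without the flanks. The median and flank alternatives could not change it. The weakest conservative site had 2.51 times the median signal, and neither flank held a thresholded peak. The share of candidates that passed was 1.27 to 1.70% in the single-replicate lists. The 95% interval it was held to was wide, at 0.301 to 2.80%. The 4 conservative sites overlapped replicate peaks under every overlap rule tried. The CTCF core was at 3 sites in every list and with a window of 250 bp, where it was in 43.2% of thresholded peaks and 20.9% of candidates. The lists could hardly differ here, since the summits of the 4 conservative sites moved by at most 12 bp between them. The nearest core of the bxd to abd-A site was 402 bp away, beyond either window. The window of 250 bp raised the Zeste and Pho words to 3 sites each and TAATTA and TATAAA to 2 each. In that window the Pho word was in 66.8% of thresholded peaks and 71.1% of candidates. The shares of the other words are given above. Candidates per 10 kb of the complex moved to 8.76 without replicate 2 and 9.42 without replicate 1, against 10.8. The rest of the arms had 7.36 and 7.99 in the same lists, against 9.19. The single-replicate lists hold fewer candidates, and whether this accounts for the change was not tested. The percentage of thresholded peaks below the bxd to abd-A site was 94.0 to 94.2 in single replicates and 96.0 in the optimal list, against 93.8. It was 96.9 to 98.5 at the iab8 site, 74.9 to 85.6 at Abd-B site 1 and 73.8 to 76.4 at Abd-B site 3 in single replicates, and 83.4 at Abd-B site 3 in the optimal list, against 74.7. The optimal list is longer, with a median signal of 96.7 against 127.2. Of the 48 distinct genes of the other lists, 12 had a peak in the conservative list, where 16.1% of all protein-coding genes did. The count was 13 in replicate 1 (12.4% of all genes), 12 in replicate 2 (18.3%), 14 in the optimal list (21.6%) and 7 within 1 kb of the body in the conservative list (5.43%). No paired analysis was possible because there is 1 group and no contrast. Depth is unknown, so how it limits weak sites such as Abd-B site 2 cannot be given.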

Other observations

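The bases next to the CTCF core were examined after the site sequences had been seen. At the iab8 site, Abd-B site 1 and Abd-B site 3 a core within 100 bp of the summit was followed directly by GC on its own strand, giving AGGTGGCGC, AGATGGCGC and AGGTGGCGC. A core followed by GC was found in 22.7% of the 611 thresholded peaks and in 0.562% of candidates. Where a window held a core, the core nearest to the summit was followed by GC in 131 of 199 thresholded peaks (65.8%) and in 682 of 11671 candidates (5.84%). The second core of Abd-B site 1, 40 bp from the summit, was not followed by GC.

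The shorter word GGCGC, also picked after seeing the sequences, lay within 100 bp of the summit at all 4 conservative sites. At the bxd to abd-A site it was 36 bp from the summit and apart from any exact core. The bases there read AAGGGGCGC, which differs from the searched word AGGGGGC followed by GC in the second letter. Only exact words were searched. GGCGC occurred in 35.4% of thresholded peaks and 23.2% of candidates. As the words were chosen from the sites themselves, their presence there is a description.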
